A study of Homo sapiens with 12 samples.

Results

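PAQR4 and its relatives, the progestin and adipoQ receptor (PAQR) family, were described in IOSE80, a cell line grown from normal human ovarian surface epithelium and made to divide without limit. The members were chosen by family name, with PAQR4 selected on its FPKM value in earlier results of these data, so its levels and changes are given as a description with no p-value. A member was taken as the locus whose name field holds its symbol, and the locus with the highest mean FPKM would have stood for it had there been several. Each of the 9 members (PAQR3, PAQR4, PAQR5, PAQR6, PAQR7, PAQR8, ADIPOR1, ADIPOR2 and MMD) had 1 locus among the 30574 loci of each file. The other 2 genes of the family, PAQR9 and MMD2, had 1 locus each as well and are given for completeness.

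The cells had been kept for 28 days with bisphenol A (BPA) at 0.25 nM (3 libraries), with BPA at 2500 nM (3), with E2 (2) or with 0.1% DMSO (3). BPA, a raw material of plastics, is a weak oestrogen, and E2 commonly stands for estradiol; the sources used here give neither its dose nor the solvent of BPA and E2. E2 replicate 3 was not analysed here. All groups share 1 cell line, with no further allele or agent named. The labels do not state separate cultures for the replicates, so a p-value here reflects the spread between samples, possibly only technical.

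PAQR proteins cross the membrane several times, like G protein-coupled receptors, but ADIPOR1 and ADIPOR2 sit in it the other way round, with the amino end inside the cell. One class holds ADIPOR1 and ADIPOR2, the receptors of the fat-cell hormone adiponectin, together with the Golgi proteins PAQR3 and PAQR4. The second class, PAQR5 to PAQR9, holds the membrane progestin receptors, which mediate fast responses to progesterone in reproductive tissues. MMD and MMD2 form the third. Adiponectin receptors have ceramidase activity, and PAQR4 has been reported to protect the cell cycle kinase CDK4 from degradation.

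PAQR4 lies on chromosome 16, 2969245 to 2973489, plus strand (GRCh38), as the locus MSTRG.6823. Its promoter is shown because PAQR4 is the member whose level stood apart with E2, and that of PAQR6 because PAQR6 was the member, PAQR4 aside, with the lowest unadjusted p-values for BPA 2500 nM and E2. Both are RefSeq sequences (GRCh38.p14) on the strand of the gene, 250 bases before to 50 after the start, at chr16:2969098-2969397 (plus strand) and chr1:156248007-156248306 (minus strand). Capitals mark every GGGCGG box and every CCAAT box on either strand.
PAQR4: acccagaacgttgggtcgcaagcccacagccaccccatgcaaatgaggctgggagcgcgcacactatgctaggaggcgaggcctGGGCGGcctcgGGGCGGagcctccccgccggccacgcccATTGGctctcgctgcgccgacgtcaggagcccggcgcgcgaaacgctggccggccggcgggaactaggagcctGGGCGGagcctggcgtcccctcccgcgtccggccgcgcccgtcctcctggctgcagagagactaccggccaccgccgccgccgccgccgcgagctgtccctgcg
PAQR6: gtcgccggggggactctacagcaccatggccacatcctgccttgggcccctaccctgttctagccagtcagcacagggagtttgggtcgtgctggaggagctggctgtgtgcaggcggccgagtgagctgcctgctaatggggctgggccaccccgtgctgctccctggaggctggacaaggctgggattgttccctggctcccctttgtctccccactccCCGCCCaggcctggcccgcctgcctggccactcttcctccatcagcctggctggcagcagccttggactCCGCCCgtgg
The table held a promoter of 4 of the 9 members.

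In the PAQR4 window 75% of the bases were G or C and 40 CpG pairs stood, against medians of 58.3% and 14 over 27305 promoters of the same length, 1 per gene. It held 3 GGGCGG boxes and 1 CCAAT box, and 44.6% and 35.7% of all promoters hold at least 1 match on either strand. The PAQR6 window had 67.7% G or C, 10 CpG pairs, 2 GGGCGG boxes and no CCAAT box. The full oestrogen response element (GGTCA, any 3 bases, then TGACC), present in 0.0659% of all promoters, was in neither window. Nor was its half-site GGTCA on either strand, present in 37.7%. Richness in G and C was not particular to PAQR4. The MMD window had 80.7% G or C and 43 CpG pairs, and the ADIPOR1 windows had 64.3% to 75.3% and 24 to 36 pairs. These letters are a description of the windows and say nothing of a factor.

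Levels are in FPKM, fragments divided by transcript length and by library size, so that genes of different length can be set side by side. ADIPOR1 was the most abundant member, with a mean of 51.1 FPKM over the 11 libraries, followed by ADIPOR2 (20.9), PAQR7 (8.18) and PAQR4 (7.07). MMD (1.58), PAQR6 (1.42) and PAQR3 (1.40) were low. The PAQR8 locus and PAQR5 (0.0864) stayed below 1 FPKM in every library, as did PAQR9 (0.544) and MMD2 (listed at 0 in all but 1 library). ADIPOR1 alone gave 47.3% to 64.7% of the family's summed FPKM. Thus 7 of the 9 members passed the filter of at least 1 FPKM in at least 2 libraries. PAQR5 and PAQR8 did not and were not tested.

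**Figure D1:**
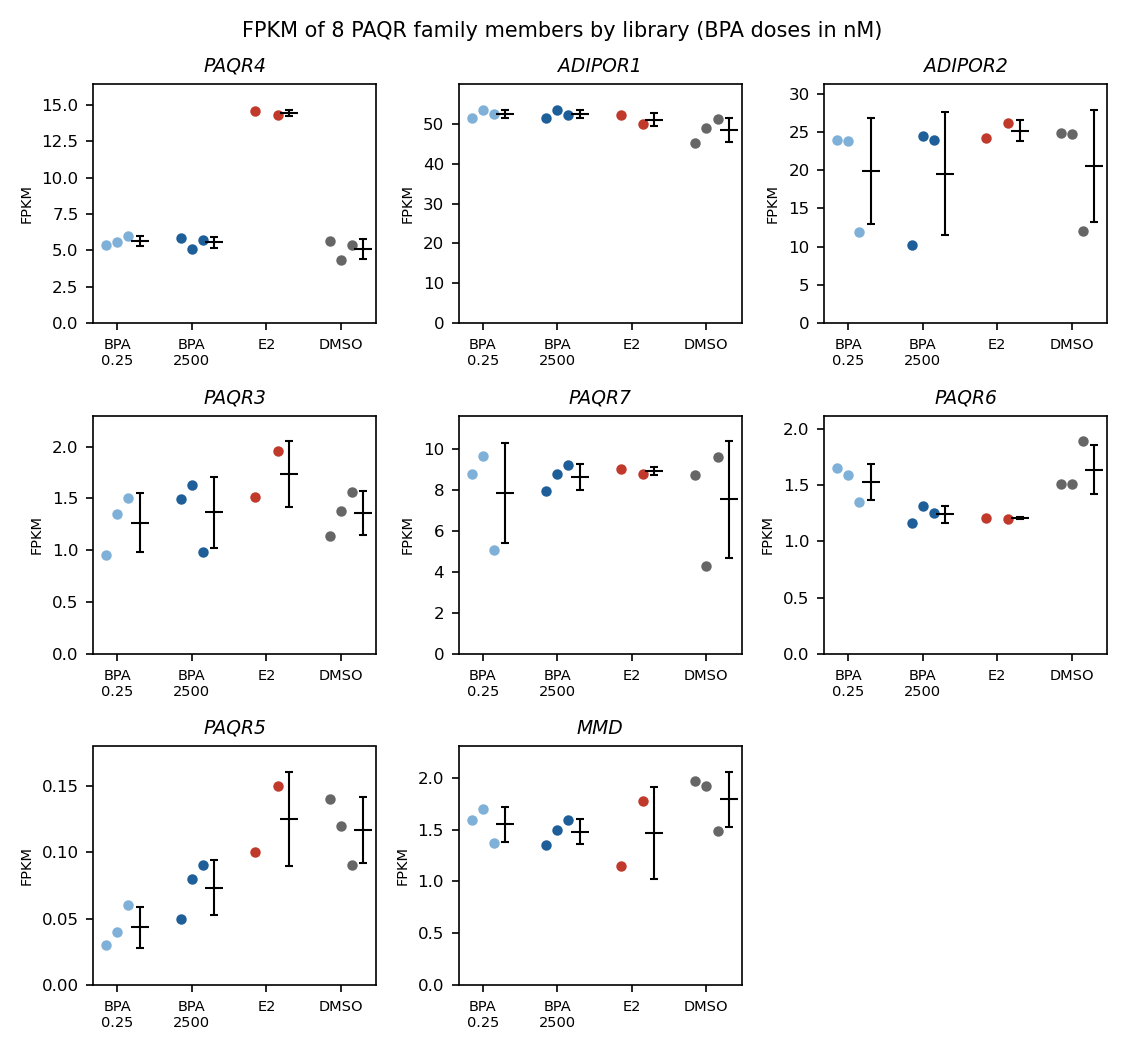
FPKM (vertical axes, from 0) of 8 members (all but PAQR8) in each library, by group (BPA doses in nM); coloured points are libraries, and the black dash and bar are the mean and SD of the group (2 libraries for E2, 3 for the others). PAQR4 stands at 14.3 and 14.58 FPKM in the E2 libraries and at 5.99 FPKM or less in all others, while ADIPOR2 and PAQR7 each have a few low libraries spread over the groups.

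PAQR4 was measured at 14.58 and 14.3 FPKM in the E2 libraries, against 5.63, 4.34 and 5.35 FPKM in the DMSO libraries. With BPA 0.25 nM the values were 5.35, 5.59 and 5.99 FPKM, and with BPA 2500 nM they were 5.81, 5.12 and 5.68 FPKM. Both E2 libraries lay far above all 9 other libraries, which overlapped among themselves. The mean was 14.4 ± 0.20 FPKM with E2 (SD, n = 2) and 5.11 ± 0.68 FPKM in DMSO (SD, n = 3), so that the E2 mean was 2.83 times that of DMSO. In the order of the group means, E2 was followed by BPA 0.25 nM (5.64 ± 0.32 FPKM), BPA 2500 nM (5.54 ± 0.37 FPKM) and DMSO, and only the step between E2 and BPA 0.25 nM had no overlap of the libraries.

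On the scale log2(FPKM + 1) the difference of PAQR4 between E2 and DMSO was 1.34 ± 0.09 (SE), which ranked 22 by size among the 12182 tested loci. For BPA 0.25 nM against DMSO the difference was 0.13 ± 0.08 and for BPA 2500 nM against DMSO 0.10 ± 0.08, each within 2 SE of 0. Between BPA 2500 nM and BPA 0.25 nM it was -0.02 ± 0.08. The 3 comparisons with DMSO share the same DMSO libraries. Leaving out each library in turn gave 0.03 to 0.19 for BPA 0.25 nM, 0.01 to 0.17 for BPA 2500 nM and 1.25 to 1.41 for E2, each against DMSO.

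**Figure D2:**
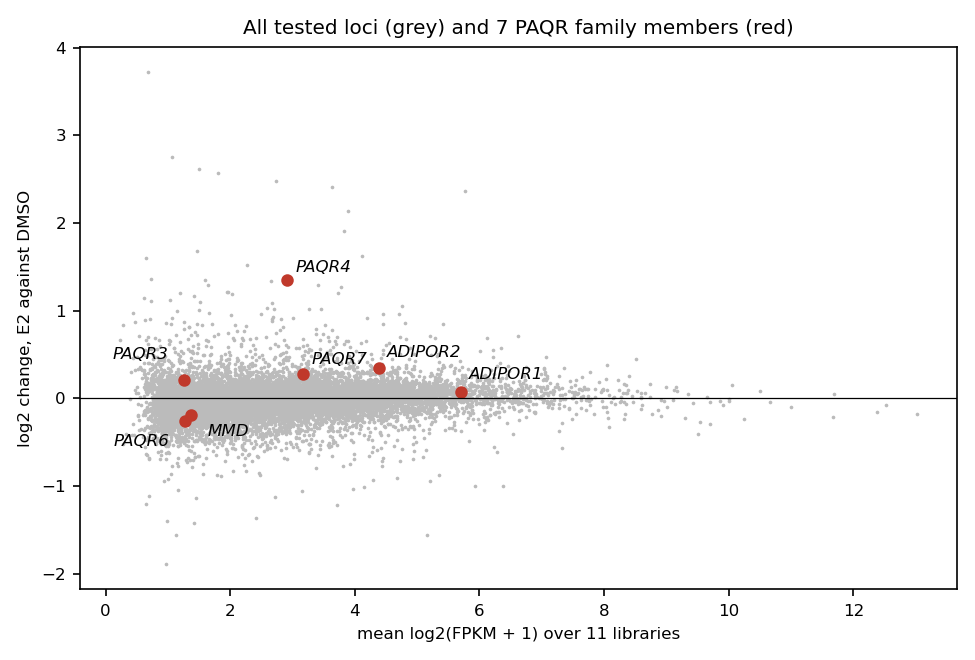
Difference between E2 and DMSO on the log2(FPKM + 1) scale (vertical axis) against the mean log2(FPKM + 1) over the 11 libraries (horizontal axis) for the 12182 tested loci in grey and the 7 tested members in red. PAQR4 stands at 1.34, and the other members lie between -0.25 (PAQR6) and 0.35 (ADIPOR2).

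The threshold for a call was an adjusted p of 0.05 (limma, Benjamini-Hochberg over all tested loci). For E2 against DMSO 1 of the 7 tested members was called, PAQR4, beside 0.419% of all tested loci; PAQR4 was selected on these values, so nothing is read from that count. Of the 6 other tested members 0 were called with E2, and 1, PAQR6, fell under an unadjusted p of 0.05, as did 15.4% of all tested loci. For BPA 0.25 nM against DMSO limma called 0 of the 7 (background 0.0164%), with 1 of the 6 members other than PAQR4 at an unadjusted p under 0.05, beside 9.11% of all tested loci. For BPA 2500 nM against DMSO it called 0 of the 7 (background 1.3%), with 2 of the 6 at an unadjusted p under 0.05, beside 17.2% of all loci. Between BPA 2500 nM and BPA 0.25 nM it called 0 of the 7 (background 0.0657%), with 0 of the 6 at an unadjusted p under 0.05, beside 7.81% of all loci. The 7 members, PAQR4 included, had a median difference of -0.04 for BPA 0.25 nM, -0.0027 for BPA 2500 nM and 0.21 for E2. Over all tested loci the medians were 0.00062, -0.03 and -0.0071, in the same order. These medians are a description only, since PAQR4 was selected on its E2 values. With only the E2 and DMSO libraries in the fit, PAQR4 was not called, and 2 loci were called in all, against 51 with the 4 groups in 1 fit.

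The tested loci beside PAQR4 on chromosome 16 had no called difference with E2, and no tested neighbour within 10 kb of any member was called in any comparison. KREMEN2 encodes a co-receptor that dampens Wnt signalling; its locus (2964216 to 2968380, plus strand) ends 864 bases before that of PAQR4. KREMEN2 stood at 8.17 and 6.31 FPKM with E2, against 10.72, 8.82 and 10.4 FPKM in DMSO. Both E2 libraries were below all DMSO libraries, and the difference of -0.42 ± 0.11 (SE) did not pass (adjusted p = 0.111). The share of all loci so separated was not counted, so nothing is read from that order. PKMYT1, which encodes a kinase that holds back CDK1, lies on the minus strand (2968024 to 2980479), and its locus covers all 4245 bases of PAQR4. PKMYT1 stood at 7.15 and 5.66 FPKM with E2, against 7.03, 5.63 and 6.1 FPKM in DMSO. These ranges were nearly the same, with a difference of 0.03 ± 0.16 (adjusted p = 0.961).

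**Figure D3:**
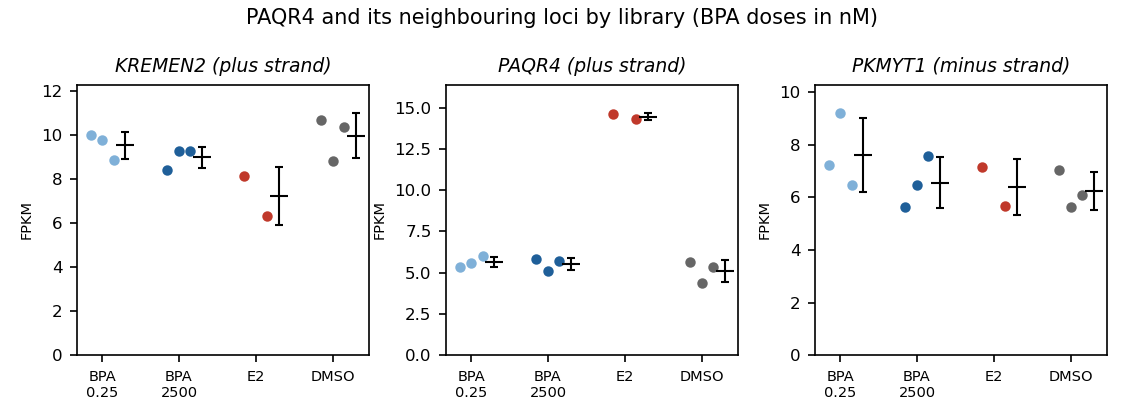
FPKM (vertical axes, from 0) of PAQR4 and of the loci KREMEN2 and PKMYT1 beside it, by library and group (BPA doses in nM); points are libraries, and the dash and bar are mean and SD. Only PAQR4 is set apart by a higher level with E2; KREMEN2 has its lowest values there, 6.31 and 8.17 FPKM.

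The PAQR4 locus limits what its FPKM can show. The sources used here do not say if strand was recorded, so fragments of PAQR4 and PKMYT1 may have been divided between them by the authors' assembly. The 4 transcripts at the locus are 842, 869, 2644 and 2793 bases long (GENCODE 29), and there is 1 FPKM value per locus, so more PAQR4 RNA and a shift towards the short transcripts cannot be told apart. Nor can more cells with PAQR4 RNA and more of it per cell, since RNA was taken from whole cultures.

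**Figure D4:**
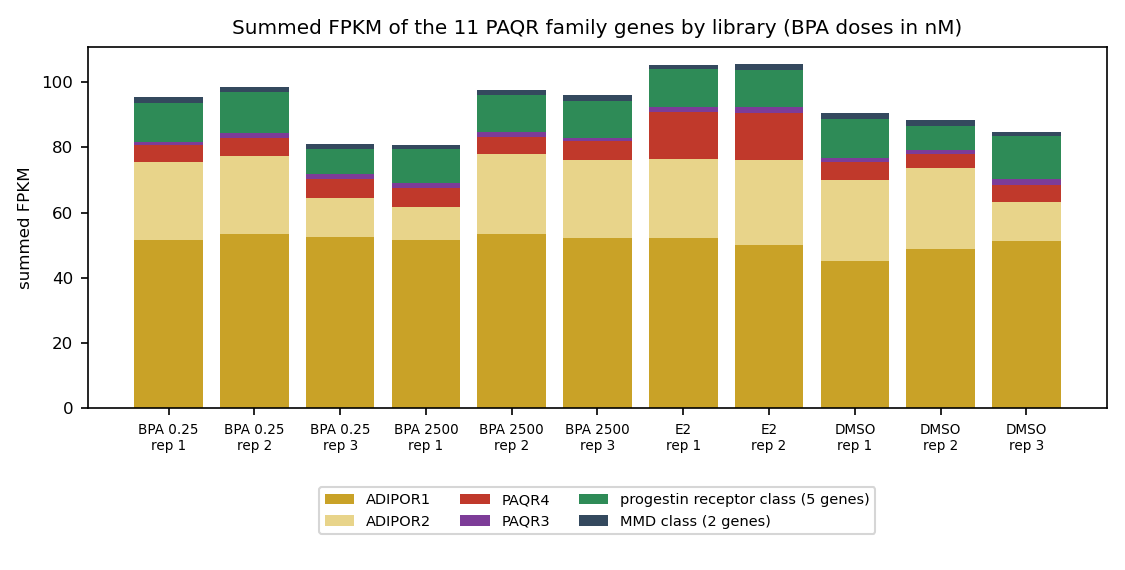
Summed FPKM of the 11 family genes (vertical axis, from 0) in each library, with BPA doses in nM; colours are single genes of the adiponectin receptor class and the sums of the other classes. PAQR4 makes up 13.6% to 13.9% of the sum in the E2 libraries and 4.90% to 7.39% elsewhere, and the 3 shortest bars of the BPA and DMSO groups are those with low ADIPOR2.

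The adiponectin receptor class made up 82.7% to 89.6% of the family's summed FPKM. Its sum was 79.3 ± 6.61 FPKM with BPA 0.25 nM, 78.9 ± 8.54 FPKM with BPA 2500 nM and 92.4 ± 0.092 FPKM with E2, against 75.4 ± 4.71 FPKM in DMSO (SD). The E2 sum includes PAQR4, selected on its E2 values (mean 14.4 FPKM, against 5.11 in DMSO). It also includes ADIPOR2 (25.2 FPKM, against 20.5 in DMSO, where 1 library stood at 12.02). No change of the class is therefore read from these sums. ADIPOR1 (chromosome 1, 202940826 to 202958572, minus strand) was measured at 51.56, 53.5 and 52.39 FPKM with BPA 0.25 nM and at 51.55, 53.49 and 52.23 FPKM with BPA 2500 nM, against 45.19, 48.87 and 51.23 FPKM in DMSO. All 6 BPA libraries lay above all DMSO libraries, by a narrow margin. How many of all tested loci separate in this way was not counted, so nothing is read from it. The log2 difference was 0.12 ± 0.05 for BPA 0.25 nM (adjusted p = 0.536) and 0.11 ± 0.05 for BPA 2500 nM (adjusted p = 0.277). With E2 the values were 52.24 and 49.94 FPKM, which overlap those of DMSO (0.08 ± 0.05, adjusted p = 0.558). ADIPOR1 had the smallest spread of the tested members, a residual SD of 0.0546 on the log2 scale.

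ADIPOR2 (chromosome 12, 1688574 to 1788674, plus strand) fell into separate levels that did not follow the groups. It was measured at 23.92, 23.86 and 11.93 FPKM with BPA 0.25 nM, at 10.2, 24.47 and 23.91 FPKM with BPA 2500 nM and at 24.17 and 26.17 FPKM with E2, against 24.8, 24.68 and 12.02 FPKM in DMSO. So 3 libraries, 1 in each group other than E2, had less than 13 FPKM, and the other 8 had more than 23 FPKM. The residual SD of ADIPOR2 on the log2 scale was 0.56, higher than that of 98.2% of the 6362 tested loci with a mean of at least 5 FPKM. No difference passed (adjusted p = 0.992 for BPA 0.25 nM, 0.926 for BPA 2500 nM and 0.765 for E2). The E2 difference of 0.35 ± 0.44 was 0.02 without DMSO replicate 3. The locus holds 2 assembled transcripts beside 5 of GENCODE, 480 to 4018 bases long.

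PAQR3, a Golgi protein that tethers the SREBP escort SCAP there, lies on chromosome 4 (78887127 to 78939438, minus strand) and overlaps BMP2K on the other strand by 25059 bases. It was measured at 1.51 and 1.96 FPKM with E2, against 1.14, 1.38 and 1.56 FPKM in DMSO. The groups overlapped, and the difference of 0.21 ± 0.15 did not pass (adjusted p = 0.565). With BPA 0.25 nM it stood at 0.95, 1.35 and 1.5 FPKM and with BPA 2500 nM at 1.49, 1.63 and 0.98 FPKM, both across the DMSO range (adjusted p = 0.928 and 0.995).

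**Figure D5:**
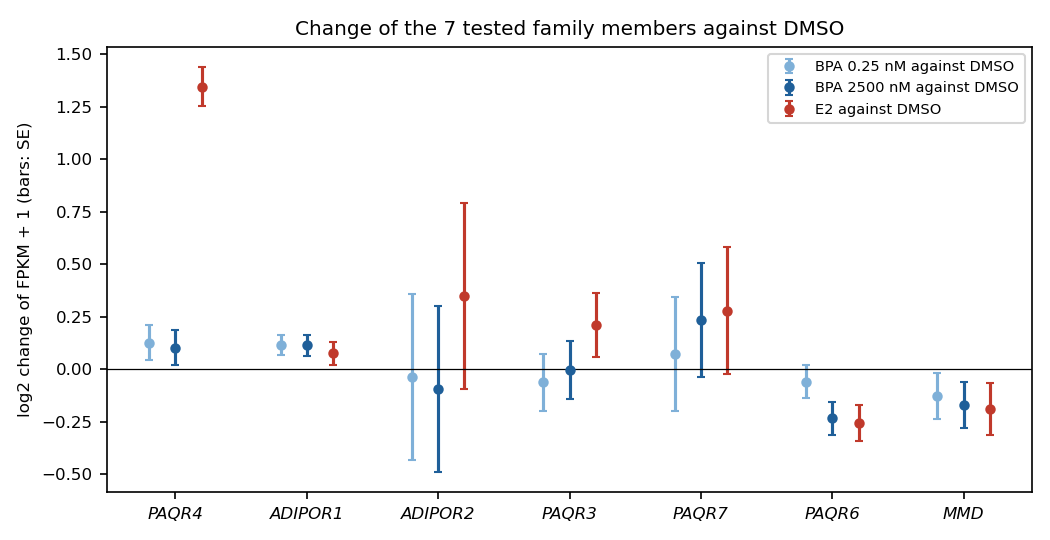
Difference from DMSO on the log2(FPKM + 1) scale (vertical axis) for the 7 tested members, with SE bars, for BPA 0.25 nM, BPA 2500 nM and E2. PAQR4 with E2 is at 1.34, and the bars of ADIPOR2 and PAQR7 are the widest.

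Of the membrane progestin receptors, PAQR7 (mPR alpha; chromosome 1, 25861210 to 25875993, minus strand) was the most abundant. It stood at 8.8, 9.69 and 5.08 FPKM with BPA 0.25 nM, at 7.96, 8.77 and 9.22 FPKM with BPA 2500 nM and at 9.06 and 8.79 FPKM with E2, against 8.72, 4.3 and 9.63 FPKM in DMSO. Low values were seen in 2 libraries, BPA 0.25 nM replicate 3 and DMSO replicate 2, and all others lay between 7.96 and 9.69 FPKM. Its residual SD of 0.38 was higher than that of 95.8% of the same 6362 loci, and no difference passed (adjusted p = 0.966 for BPA 0.25 nM, 0.695 for BPA 2500 nM and 0.722 for E2). Without DMSO replicate 2 the difference was -0.24 for BPA 0.25 nM (0.07 with it), -0.08 for BPA 2500 nM (0.24) and -0.03 for E2 (0.28).

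PAQR6 (mPR delta; chromosome 1, 156243320 to 156248117, minus strand) was measured at 1.16, 1.31 and 1.25 FPKM with BPA 2500 nM and at 1.21 and 1.2 FPKM with E2, against 1.51, 1.51 and 1.89 FPKM in DMSO. All 5 of these treated libraries lay below all DMSO libraries. The difference was -0.23 ± 0.08 for BPA 2500 nM (unadjusted p = 0.0145, adjusted p = 0.177) and -0.25 ± 0.09 for E2 (unadjusted p = 0.0161, adjusted p = 0.208), and neither passed. With BPA 0.25 nM the values of 1.65, 1.59 and 1.35 FPKM overlapped those of DMSO (-0.06 ± 0.08, adjusted p = 0.862). Between BPA 2500 nM and BPA 0.25 nM the libraries did not overlap, and the difference of -0.17 ± 0.08 did not pass (adjusted p = 0.639). The share of all loci with no overlap was not counted, so nothing is read from this or from the separation from DMSO. In 11 fits, each without 1 library, the PAQR6 difference ran from -0.27 to -0.16 for BPA 2500 nM and from -0.29 to -0.19 for E2. Since these libraries did not overlap those of DMSO, leaving out 1 could not turn the sign, and nothing is read from that. With a pseudocount of 0.1 in place of 1 the difference was -0.37 for BPA 2500 nM, -0.40 for E2 and -0.28 between the BPA doses.

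The rest of this class was scarce. PAQR8 (mPR beta) has a locus that is not its own alone, so its values by library are not given. PAQR5 (mPR gamma) was at 0.03, 0.04 and 0.06 FPKM with BPA 0.25 nM, at 0.05 to 0.09 FPKM with BPA 2500 nM and at 0.1 and 0.15 FPKM with E2, against 0.14, 0.12 and 0.09 FPKM in DMSO. These values are close to the last of the 2 decimals in the files. PAQR9 (mPR epsilon) lay at 0.39 to 0.7 FPKM over all libraries. The summed FPKM of PAQR5 to PAQR9, the whole PAQR8 locus included, was 10.8 ± 2.62 FPKM in BPA 0.25 nM libraries, 11.1 ± 0.66 FPKM in BPA 2500 nM libraries and 11.5 ± 0.18 FPKM in E2 libraries, against 10.8 ± 3.08 FPKM in DMSO (SD). These sums are mostly PAQR7 (mean 8.18 FPKM), its low libraries included. Neither a change of the class nor the lack of one is therefore read from them.

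MMD, named for its rise when monocytes become macrophages, was measured at 1.15 and 1.78 FPKM with E2, against 1.97, 1.92 and 1.49 FPKM in DMSO. It stood at 1.59, 1.7 and 1.37 FPKM with BPA 0.25 nM and at 1.35, 1.5 and 1.59 FPKM with BPA 2500 nM. All groups overlapped those of DMSO, and its differences of -0.13 ± 0.11 (BPA 0.25 nM), -0.17 ± 0.11 (BPA 2500 nM) and -0.19 ± 0.12 (E2) did not pass (adjusted p = 0.772, 0.464 and 0.519).

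Partners of the family, grouped in 5 lists, had no called member in any of the 3 comparisons with DMSO or between the BPA doses, by limma. The counts of unadjusted p under 0.05 given for each list are to be read against the shares of all tested loci, 9.11% with BPA 0.25 nM, 17.2% with BPA 2500 nM, 15.4% with E2 and 7.81% between the doses. Of the adiponectin signalling list 11 of 15 genes were tested. An unadjusted p under 0.05 was found for 0 of them with BPA 0.25 nM, 1 with BPA 2500 nM, 1 with E2 and 0 between the doses. The adaptor gene APPL1, whose protein binds adiponectin receptors, stood at 16.2 ± 2.81 FPKM with E2 and 15 ± 1.54 FPKM in DMSO. PRKAA1, a catalytic subunit of the energy sensor AMPK, stood at 18.7 ± 2.51 FPKM with E2 and 17.8 ± 1.08 FPKM in DMSO. ADIPOQ, the gene of adiponectin, matched no locus by that name. The median difference of this list for E2 was -0.03, against -0.01 over all loci.

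Of the list of ceramide and sphingosine metabolism 22 of 30 genes were tested, with an unadjusted p under 0.05 for 4 in each comparison of a BPA dose with DMSO, 0 with E2 and 0 between the doses. Its most abundant genes were CERS2, a ceramide synthase, and DEGS1, the desaturase of the last step of ceramide synthesis. CERS2 stood at 44.4 ± 3.57 FPKM with E2 and 36.5 ± 10.5 FPKM in DMSO, and DEGS1 at 28.2 ± 12.6 FPKM with E2 and 18.5 ± 1.15 FPKM in DMSO. So 4 of 22 loci stand beside 9.11% of all loci with BPA 0.25 nM and beside 17.2% with BPA 2500 nM. The list's median difference for E2 was 0.04, against -0.01 over all loci. Of the G1 list around PAQR4, 7 of 8 genes were tested, and an unadjusted p under 0.05 was found for 0 with BPA 0.25 nM, 1 with BPA 2500 nM, 1 with E2 and 0 between the doses. CDK4 stood at 45.7 ± 8.76 FPKM with E2 and 44.2 ± 8.07 FPKM in DMSO, and the cyclin gene CCND1 at 35.9 ± 3.03 FPKM with E2 and 33 ± 1.16 FPKM in DMSO.

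All 14 genes of the list of ERK cascade and SREBP partners of PAQR3 were tested, and 2 had an unadjusted p under 0.05 with each BPA dose, 3 with E2 and 0 between the doses. The median difference of this list for E2 was -0.03, against -0.01 over all loci. MAP2K1, a kinase of the ERK cascade, stood at 18 ± 1.63 FPKM with E2 and 18 ± 1.09 FPKM in DMSO, and SREBF2, a regulator of cholesterol synthesis, at 17.3 ± 1.25 FPKM with E2 and 19.3 ± 0.78 FPKM in DMSO. Of the 6 genes of progestin receptors and partners 5 were tested, with 0 at an unadjusted p under 0.05 in each comparison. PGRMC1, a haem-binding membrane protein linked to progesterone responses, stood at 64.5 ± 1.06 FPKM with E2 and 64.9 ± 1.60 FPKM in DMSO, and its partner SERBP1 at 61.4 ± 1.88 FPKM with E2 and 58.6 ± 0.27 FPKM in DMSO. The nuclear progesterone receptor gene PGR matched no locus by that name.

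The genes most like PAQR4 over the 11 libraries were sought among 9329 tested loci that name 1 coding gene, clone and antisense symbols left out, by Pearson r on the log2 scale, as a description. The r was 0.96 for a locus named YWHAE, 0.93 for BRD7 (a bromodomain protein), 0.87 for NEIL3 (a DNA glycosylase), 0.86 for DDX5 (an RNA helicase, at a locus that also names MIR3064 and MIR5047) and 0.85 for PSMD1 (a proteasome subunit). Spearman's rho over the same libraries was lower, 0.55 to 0.73. PAQR4 was selected on its E2 values, so the 2 E2 libraries largely set these r. A locus only slightly higher with E2 can therefore rank high. The E2 difference from DMSO was 0.09 for PSMD1, 0.16 for BRD7, 0.25 for NEIL3 and 0.33 for DDX5, against 1.34 for PAQR4. The locus named YWHAE (chromosome 17, 1344629 to 1344890) lies on the plus strand, opposite to the annotated gene. It was listed at 7.41 and 19.79 FPKM with E2 and at 0 in all other libraries. This locus thus passed the filter only through the 2 E2 libraries, and nothing is read from its high r. BRD7 stood at 12.08 and 12.11 FPKM with E2, against 11.19, 10.52 and 10.48 FPKM in DMSO. DDX5 stood at 67.99 and 64.64 FPKM with E2, against 58.01, 49.91 and 50.09 FPKM in DMSO. Within the family, r with PAQR4 lay between -0.52 (PAQR6) and 0.49 (PAQR3).

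The libraries were alike in total FPKM (206719 to 213663), and the median correlation of each with the rest, computed across loci, was 0.990 to 0.992. The share of FPKM from the mitochondrial chromosome was 12.6% to 12.7% in BPA 0.25 nM libraries, 12.9% to 13.6% in BPA 2500 nM libraries and 12.3% to 14.0% in E2 libraries, against 13.6% to 14.3% in DMSO, and its part in the values above was not tested. ESR1 and ESR2, the nuclear oestrogen receptor genes, did not exceed 0.02 and 0.04 FPKM in any library, and GPER1, a membrane receptor for estradiol, averaged 2.12 FPKM. Of 12 ovarian surface markers 4 reached a mean of 1 FPKM (KRT8, KRT18, ALDH1A1 and NR2F2), while WT1, GATA4 and BNC1 were near 0. Summed over that list the levels were 134 to 143 FPKM with BPA 0.25 nM, 122 to 127 FPKM with BPA 2500 nM and 141 to 143 FPKM with E2, against 134 to 151 FPKM in DMSO. Most of each sum was ALDH1A1, at 97.6 ± 3.18 FPKM with BPA 2500 nM, against 116.3 ± 6.02 FPKM in DMSO (SD). The BPA 2500 nM sums lay below all DMSO sums. The share of all loci so separated was not counted, so nothing is read from that order. Among mesenchymal and fibroblast markers COL3A1 was lower as well (23.4 ± 0.40 FPKM, against 31.3 ± 0.89 FPKM in DMSO), while VIM, S100A4 and PDGFRA overlapped DMSO. The part of these in the BPA 2500 nM values of PAQR6 and ADIPOR1 was not tested. Of 6 mesenchymal and fibroblast markers 4 reached a mean of 1 FPKM, VIM the highest at 688 FPKM, and COL1A2 and DCN were near 0, while the defining leukocyte gene PTPRC, the endothelial gene CDH5 and the granulosa gene CYP19A1 were at or near 0. Of the same marker lists CD68 averaged 46.0 FPKM, EGFL7 8.72 FPKM and FOXL2 6.78 FPKM. Of 4 adipocyte markers 2 matched a locus, PLIN1 and FABP4, and neither exceeded 0.04 FPKM.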

How the data were processed

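The authors deposited 1 FPKM value per locus and library, with 2 decimals, per the file headers. The submitters' processing notes name StringTie, HISAT, edgeR and UMI-tools but give no version. Those notes name hg19, yet 74.8% of 14123 Ensembl loci have the start and end of GENCODE 29, so positions are given on GRCh38. Depth is unknown, and precision was taken from the spread between libraries.

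Loci with at least 1 FPKM in at least 2 of the 11 libraries (12182) were tested on log2(FPKM + 1), which understates changes of low genes, by limma 3.58.1 in R 4.3.3 with trend and robust settings (statmod 1.5.0) and 1 mean for each of 4 groups. Tests were two-sided, adjusted by Benjamini-Hochberg within a comparison. The fit was tested on simulated data. Plots were drawn with matplotlib 3.10.9, and tables with pandas 2.3.3 and numpy 2.4.6 under Python 3.11.15.

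Members and lists were chosen with earlier results of these data known. The text names the members, their tested neighbours within 10 kb that bear on PAQR4, the 5 loci most like PAQR4, and from each list the called genes or else the 2 most abundant. A few items are not reported here.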

Additional observations from a re-analysis of the deposited data

How the results depend on the processing

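For E2 against DMSO the 1 called member is PAQR4, which was selected on these values, so its call under the alternatives supports nothing. It was lost (0 members called) in the fit with only the 2 groups compared, where 2 loci were called in all, against 51 with the 4 groups together. The counts of called members were 0 under all alternatives in the other 3 comparisons. The log2 difference of PAQR4 between E2 and DMSO lay between 1.34 and 1.49 (pseudocount of 0.1) over 7 settings. Without 1 of the E2 libraries the remaining one is assumed to vary like the other groups. The replicate numbers gave no sign of pairing: deviations from the group means had a median r of -0.01 between libraries of the same number and 0.01 between others. With the replicate block PAQR4 was at 1.37 and the calls over all loci fell to 5, against 51. Without E2 replicate 1 they were 189, and over the 11 fits without 1 library they ran from 7 (without BPA 2500 nM replicate 2) to 189. For BPA 2500 nM against DMSO the loci called ranged from 13 (only the 2 groups compared) to 251 (without E2 replicate 2, or with no E2 libraries), against 158, for BPA 0.25 nM from 0 to 9, against 2, and between the BPA doses from 2 to 10, against 8. Rescaling by the median of ratios moved the median of all loci by less than 0.1 in each comparison, and summing over loci changed no level, since each member had 1 locus. Leaving out 1 library moved the E2 difference of ADIPOR2 between 0.02 and 0.52 and that of MMD between -0.37 and -0.0024. It turned the sign of PAQR7 in each comparison and that of ADIPOR2 for BPA 0.25 nM (-0.36 to 0.28), for BPA 2500 nM (-0.42 to 0.30) and between the doses (-0.37 to 0.33). Differences under 0.1 in size of PAQR3, PAQR4, PAQR6, ADIPOR1 and MMD also turned sign in 1 or more comparisons. With 2 or 3 libraries a group, small differences of the low members PAQR3, PAQR6 and MMD were not resolved.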

Other observations

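Wide spreads between libraries, as for ADIPOR2 and PAQR7, were also seen for DEGS1 and CERS2, genes of ceramide synthesis, and outside that list. The SE for BPA 0.25 nM against DMSO was 0.53 for PGRMC2 (progestin list), 0.40 for ADIPOR2 and 0.23 for CERS2 and DEGS1. DEGS1 was measured at 19.27 and 37.07 FPKM with E2 and at 18.49, 18.48 and 29.9 FPKM with BPA 0.25 nM, against 19.87, 17.87 and 17.89 FPKM in DMSO. CERS2 was measured at 46, 27.89 and 47.18 FPKM with BPA 2500 nM, against 24.93, 39.28 and 45.38 FPKM in DMSO. With BPA 0.25 nM it stood at 45.41, 46.21 and 46.45 FPKM, and with E2 at 46.93 and 41.88 FPKM. BPA 0.25 nM replicate 3 held an outlying value of ADIPOR2, PAQR7 and DEGS1, and the other such libraries differed between the genes. ADIPOR2 was low in BPA 0.25 nM replicate 3, BPA 2500 nM replicate 1 and DMSO replicate 3, PAQR7 in BPA 0.25 nM replicate 3 and DMSO replicate 2, and CERS2 in BPA 2500 nM replicate 2 and DMSO replicate 1, while DEGS1 was high in BPA 0.25 nM replicate 3 and E2 replicate 2. These genes were singled out after their values were seen. PAQR4 had a residual SD of 0.11 on the log2 scale, above that of 58.7% of the 6362 loci with a mean of at least 5 FPKM. Since PAQR4 was selected on these same values, its spread is a description only.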
